A study of Mus musculus with 18 samples.

Results

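The mitochondrially encoded genes are the genes of the mitochondrial chromosome, taken here as every symbol that begins with mt- in the mRNA and ribosome footprint tables of edited TC1 cells. There were 37 such genes among the 29538 genes listed in any of the tables, and by symbol they fell into 13 protein-coding genes, 2 ribosomal RNA genes and 22 transfer RNA genes. All 37 were among the 28738 genes of the sgMyc mRNA table. The sgNAT10 mRNA table listed 23 of them among 17379 genes, with 13 protein-coding, 2 ribosomal RNA and 8 transfer RNA genes. The footprint table listed 11 of them among 10974 genes, with 7 protein-coding, 2 ribosomal RNA and 2 transfer RNA genes.

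TC1 is a mouse tumour line that the labels call a fibrosarcoma. Cells carrying a guide RNA against Nat10 (sgNAT10, 2 libraries) or against Myc (sgMyc, 3 libraries) were each compared in mRNA with wild-type cells (WT) sequenced beside them, in 2 and 3 libraries. Ribosome-protected fragments were sequenced from 2 sgNAT10 and 2 WT libraries, and acetylated RNA was precipitated from 1 sgNAT10 and 1 WT sample. The labels give no control guide, dose or time, and do not say whether an edited line is a clone. Nat10 encodes an RNA acetyltransferase and Myc a transcription factor.

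Mitochondrial DNA is a small circle that is transcribed by its own RNA polymerase, Polrmt, into long precursors running from either strand. Transfer RNAs lie between most of the other genes, and their excision frees the ribosomal RNAs and the messengers. The messengers are read by mitochondrial ribosomes, which are built on the mitochondrial ribosomal RNAs. All products of these messengers are subunits of the respiratory chain and of the ATP synthase, which work beside many nuclear-encoded partners.

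The sgNAT10 mRNA libraries had 17231894 and 16135103 mapped reads as implied by their FPKM values (fragments per kilobase of gene, scaled to the mapped fragments of a library), and their WT libraries had 21908639 and 18365279. The footprint libraries were shallower, with 3570054 and 3450859 reads in sgNAT10 and 3152932 and 3069706 in WT. Library totals in the sgMyc set ran from 57363229 to 65768024 counts in sgMyc and from 51875052 to 55900895 counts in WT. The labels do not say that replicates came from separate cultures, so p-values measure the spread between these libraries, which may be technical. Counts of the same group differed beyond sampling noise in 0.694% to 1.28% of genes in the sgNAT10 mRNA set, where sampling alone gives 0.1%, against 30.2% to 33.7% in footprints and 13.1% to 57.1% in the sgMyc set. The 2 comparisons with sgMyc replicate 3 gave the 57.1%, so that library stood apart. Shares past such a limit also rise with the number of reads, which differed between the sets. Nat10 mRNA averaged 3.77 ± 0.258 FPKM in sgNAT10 cells and 5.33 ± 0.0437 FPKM in WT cells (SD, n = 2 each), and Myc mRNA averaged 25.4 ± 7.55 FPKM in sgMyc cells and 65.7 ± 4.65 FPKM in WT cells (SD, n = 3 each). Both differences passed the test, with adjusted p = 0.00266 and 0.0110. The Myc difference in sgMyc cells did not pass when any single WT library was left out (adjusted p = 0.0519 to 0.0658). Myc mRNA was also lower in sgNAT10 cells, at 40.5 ± 0.664 FPKM in sgNAT10 and 116 ± 1.26 FPKM in WT (SD, n = 2 each; log2 fold change -1.49, adjusted p = 9.41e-06) against -1.37 in sgMyc cells. Myc footprints were lower too, at 103 ± 32.4 FPKM in sgNAT10 and 281 ± 0.135 FPKM in WT (-1.47, adjusted p = 0.0298). They did not pass without the variance trend (adjusted p = 0.134), and were between -1.80 and -1.15 when single libraries were left out. Nat10 did not pass in sgMyc cells, at 4.37 ± 1.65 FPKM in sgMyc and 5.001 ± 0.133 FPKM in WT (SD, n = 3 each; -0.19, adjusted p = 0.675). Of 9 fibroblast markers, 6 had a mean of at least 1 FPKM in the sgNAT10 mRNA set and 7 in the sgMyc set, while Col1a1 stayed under 1 FPKM in both. The fibroblast markers summed to 517 to 541 FPKM in sgNAT10 and 270 to 278 FPKM in WT, and to 851 to 1205 FPKM in sgMyc and 1039 to 1063 FPKM in WT. Vim made up most of these sums, averaging 432 FPKM in sgNAT10 and 251 FPKM in WT, and 722 FPKM in sgMyc and 917 FPKM in WT. Other fibroblast markers had higher means in sgMyc libraries, with Col3a1 at 161 FPKM in sgMyc and 25.4 FPKM in WT, Pdgfra at 47.9 FPKM in sgMyc and 17.6 FPKM in WT, and Thy1 at 45.2 FPKM in sgMyc and 12.5 FPKM in WT. Pdgfrb averaged 11.8 FPKM in sgMyc and 1.86 FPKM in WT, and Dcn 10.2 FPKM in sgMyc and 0.643 FPKM in WT. In sgNAT10, Thy1 averaged 41.8 FPKM against 1.19 FPKM in WT, Col1a2 41.9 against 13.1 FPKM and Pdgfra 7.91 against 0.961 FPKM. Col3a1 and Pdgfrb had lower means there, at 3.42 and 1.64 FPKM in sgNAT10 and 4.31 and 2.63 FPKM in WT. Of 5 macrophage markers, 3 reached 1 FPKM in the sgNAT10 set, with sums of 12.2 to 13.7 FPKM in sgNAT10 and 5.49 to 5.996 FPKM in WT, and Adgre1 and Ptprc were not listed. Cd14 made up most of that sum, averaging 9.75 FPKM in sgNAT10 and 2.28 FPKM in WT, while Cd68 averaged 1.25 FPKM in sgNAT10 and 1.19 FPKM in WT and Csf1r 1.94 FPKM in sgNAT10 and 2.28 FPKM in WT. In the sgMyc set 2 of them reached it, with sums of 15.9 to 29.3 FPKM in sgMyc and 10.9 to 12.3 FPKM in WT. No marker of T cells, endothelium or epithelium reached a mean of 1 FPKM in either mRNA set. The part of these markers in the results below was not tested.

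On the mitochondrial chromosome the 37 genes stood at the same positions in the sgMyc table as in RefSeq GRCm38, and 28 lay on the plus strand. The minus strand held mt-Nd6 and 8 transfer RNA genes. Some neighbours share bases: mt-Atp8 (chrM:7766-7969) overlaps mt-Atp6 (chrM:7927-8607), mt-Nd4l (chrM:9877-10173) overlaps mt-Nd4 (chrM:10167-11544), and mt-Nd5 (chrM:11742-13565) overlaps mt-Nd6 (chrM:13552-14070) on the other strand. How reads in such stretches, or reads reaching from a transfer RNA into its neighbour, were counted is not given in the sources used here, so the split between overlapping genes is uncertain.

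In sgNAT10 mRNA the protein-coding genes changed unequally. Of 13 tested, 7 fell, 1 rose and 5 did not pass the test, with a median log2 fold change of -0.43 against 0.01 over all 11735 genes tested. That median was -0.23 without WT replicate 1, -0.23 under quantile normalization and -0.31 without sgNAT10 replicate 2. Over all of these genes 63.3% were called, 29.6% lower and 33.7% higher, at an adjusted p under 0.05 (limma on log2(FPKM + 1), Benjamini-Hochberg over all genes tested). With no filter on low values 5 of the 13 were called lower, against 24.7% of all genes tested. Without the variance trend 5 were called lower too, against 29.1%. Both sgNAT10 libraries lay below both WT libraries for 7 of the 13 and above them for 1, against 39.0% and 43.3% of all genes tested. The genes that fell encode subunits of complex I, complex IV and the ATP synthase, and mt-Cytb, mt-Nd1, mt-Nd4, mt-Nd4l and mt-Atp8 did not pass the test. In bulk libraries fewer cells of a kind and less RNA per cell cannot be told apart.

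Complex I, the NADH dehydrogenase, has 7 mitochondrially encoded subunits, and they went in different directions. mt-Nd5 had 679 and 520.4 FPKM in sgNAT10 libraries, against 1079 and 1027 FPKM in WT libraries, a log2 fold change of -0.82 ± 0.12 (SE; adjusted p = 0.00314). mt-Nd6 had 1056 and 775 FPKM in sgNAT10, against 1509.6 and 1399.7 FPKM in WT (-0.68 ± 0.15, adjusted p = 0.0108). mt-Nd2 had 1486 and 1266 FPKM in sgNAT10, against 2005 and 1693 FPKM in WT (-0.43 ± 0.11, adjusted p = 0.0199). Both sgNAT10 libraries lay below both WT libraries for these 3 genes. Without sgNAT10 replicate 2 or WT replicate 1, mt-Nd2 no longer passed, with adjusted p = 0.0620 and 0.0708. mt-Nd3 went the other way, with 32.2 and 24.8 FPKM in sgNAT10, against 17.7 and 15.5 FPKM in WT (0.74 ± 0.13, adjusted p = 0.00580). It stood on 99 to 193 reads per library. mt-Nd1 was the most abundant messenger of the class in this set, at 6227 and 5796 FPKM in sgNAT10, against 6429 and 5689.6 FPKM in WT, and its libraries overlapped (-0.01 ± 0.07, adjusted p = 0.917). mt-Nd4 also overlapped, with 743 and 646 FPKM in sgNAT10, against 759 and 689 FPKM in WT (-0.06 ± 0.08, adjusted p = 0.533). mt-Nd4l had 24.2 and 16.3 FPKM in sgNAT10, against 21.8 and 21.3 FPKM in WT (-0.11 ± 0.17, adjusted p = 0.607). Its sgNAT10 libraries lay on either side of the WT libraries, so it was called lower without sgNAT10 replicate 1 (-0.38, adjusted p = 0.00271) and higher without sgNAT10 replicate 2 (0.16, adjusted p = 0.0312).

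All 3 mitochondrially encoded subunits of complex IV, the cytochrome c oxidase, fell. mt-Co1, which holds the catalytic centre, had 3659 and 3414 FPKM in sgNAT10, against 5201 and 4530.4 FPKM in WT (-0.46 ± 0.08, adjusted p = 0.00437). mt-Co2, which takes electrons from cytochrome c, had 196 and 185 FPKM in sgNAT10, against 331 and 317 FPKM in WT (-0.76 ± 0.04, adjusted p = 9.51e-05). mt-Co3 had 71.1 FPKM in each sgNAT10 library, against 119 and 85.4 FPKM in WT (-0.50 ± 0.15, adjusted p = 0.0347). The sgNAT10 libraries lay below the WT libraries for each of these genes. Under quantile normalization mt-Co1 was at -0.23 and no longer passed (adjusted p = 0.226). mt-Co3 lost its call without either sgNAT10 library, with adjusted p = 0.0918 and 0.0926, and its log2 fold change was -0.26 without WT replicate 1.

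Cytochrome b and the ATP synthase genes gave the remaining values. mt-Cytb, the only complex III subunit of this genome, had 2085 and 1928 FPKM in sgNAT10, against 2114 and 1862 FPKM in WT (0.01 ± 0.07, adjusted p = 0.872), and its libraries overlapped. mt-Atp6, a subunit of the proton channel, had 90.9 and 81.3 FPKM in sgNAT10, against 140.3 and 101 FPKM in WT (-0.47 ± 0.16, adjusted p = 0.0488). That call was lost without either sgNAT10 library or without WT replicate 1, with adjusted p = 0.0647 to 0.159, and its log2 fold change was -0.23 without WT replicate 1. mt-Atp8, an accessory subunit, had 4.27 and 3.04 FPKM in sgNAT10, against 3.13 and 2.40 FPKM in WT, from 9 to 15 reads per library (0.30 ± 0.16, adjusted p = 0.157). The authors' deposited table lists mt-Atp6 and mt-Co3 at adjusted p-values of 0.0956 and 0.0550 in this comparison.

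Of the ribosomal RNAs of the mitochondrial ribosome, 1 rose and 1 did not pass. mt-Rnr2, the large-subunit RNA, had 2006 and 2175 FPKM in sgNAT10, against 1598 and 1716 FPKM in WT, and rose (0.33 ± 0.06, adjusted p = 0.00439), except under quantile normalization (0.12, adjusted p = 0.119). mt-Rnr1, the small-subunit RNA, had 3462 and 3194 FPKM in sgNAT10, against 3416 and 3599 FPKM in WT (-0.08 ± 0.05, adjusted p = 0.254), and edgeR on recovered reads called it lower at the same size (-0.08, adjusted p = 0.0363). Of 8 transfer RNA genes tested, 5 fell, 1 rose and 2 did not pass, over a range of -1.14 to 0.49, where 29.6% of all genes tested were called lower and 33.7% higher. The most abundant was mt-Ts1, with 309 and 317 FPKM in sgNAT10, against 430.0 and 458 FPKM in WT (-0.50 ± 0.04, adjusted p = 0.000321). mt-Tp had 191 and 159 FPKM in sgNAT10, against 384 and 388 FPKM in WT (-1.14 ± 0.09, adjusted p = 0.000280). For these transfer RNA genes the sgNAT10 libraries lay below the WT libraries. mt-Tq had 63.8 and 60.2 FPKM in sgNAT10, against 67.5 and 69.8 FPKM in WT (-0.15 ± 0.04, adjusted p = 0.0250), and it lost its call without sgNAT10 replicate 2 or either WT library. The gene that rose, mt-Ty, had 22.5 and 27.8 FPKM in sgNAT10, against 19.8 and 15.4 FPKM in WT (0.49 ± 0.14, adjusted p = 0.0302), from 19 to 30 reads, and it lost its call without sgNAT10 replicate 2 or WT replicate 2. edgeR on recovered reads called neither mt-Tq nor mt-Ty (adjusted p = 0.397 and 0.132).

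**Figure D1:**
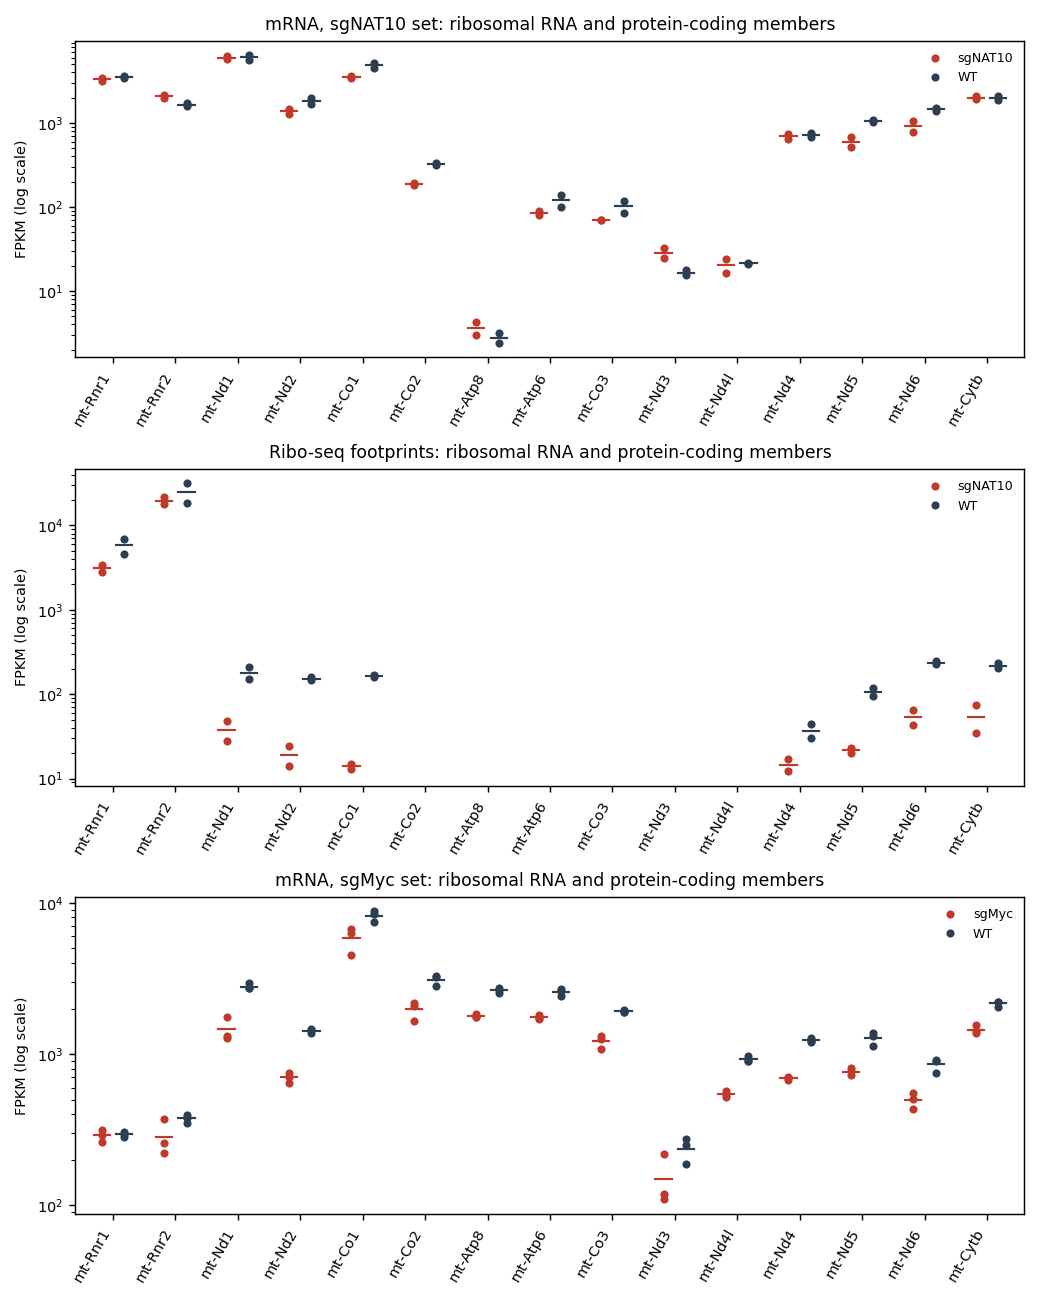
FPKM on a log scale of the ribosomal RNA and protein-coding genes in genome order, for sgNAT10 mRNA, footprints and sgMyc mRNA; points are libraries, bars are group means, and edited libraries stand left of WT. Protein-coding footprints are lower in both sgNAT10 libraries than in both WT libraries for each of the 7 genes listed, and genes from mt-Co2 to mt-Nd4l are far lower in the sgNAT10 mRNA set than in the sgMyc set.

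The replicates of the sgNAT10 mRNA set, which differed little over all genes, differed in these genes. Replicate 1 was above replicate 2 for 12 of 13 protein-coding genes in sgNAT10, by a median log2 ratio of 0.20, and for 13 of 13 in WT, by 0.18. Counts differed beyond sampling noise for 7 of the 13 in sgNAT10 and 9 in WT, and such numbers also rise with the reads per gene. The share of summed FPKM held by the gene Gm23935 also differed between these libraries, at 23.1% and 35.8% in sgNAT10 and 22.6% and 22.0% in WT, and its part in the differences was not tested. The protein-coding genes together held 3.45% and 2.55% of summed FPKM in sgNAT10, against 4.26% and 3.77% in WT. With Gm23935 left out of the sum these shares were 4.48% and 3.97% in sgNAT10, against 5.51% and 4.84% in WT. The sgNAT10 libraries were lower on either sum, and with 2 libraries a group the smallest exact two-sided permutation p is 0.333, so no test was made. Within the class, mt-Nd1 made up 38.7% ± 0.905 in sgNAT10 and 32.6% ± 0.0370 in WT, and mt-Co1 made up 22.8% ± 0.570 in sgNAT10 and 26.2% ± 0.265 in WT (SD, n = 2 each).

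Footprints on nearly all of the mitochondrial messengers listed were lower in sgNAT10 cells. Of 7 protein-coding genes tested, 6 fell and 1 did not pass, with a median log2 fold change of -2.24 against -0.0015 over all 9707 genes tested. Of these genes 3.09% were called, 1.28% lower and 1.81% higher (limma on log2(FPKM + 1)). All sgNAT10 libraries lay below all WT libraries for 7 of 7, against 25.6% of all genes tested. mt-Co2, mt-Co3, mt-Atp6, mt-Atp8, mt-Nd3 and mt-Nd4l were not in the footprint table and were not analysed in it.

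mt-Co1 had the lowest fold change of the 7, 24th from the lowest of 9707 genes. It had 14.9 and 13.1 FPKM in sgNAT10, against 170.4 and 160.0 FPKM in WT (-3.47 ± 0.17, adjusted p = 0.00132), from 82 and 70 reads in sgNAT10 and 830 and 759 reads in WT. Its sgNAT10 mean was 8.47% of its WT mean. mt-Nd2 had 24.3 and 14.0 FPKM in sgNAT10, against 147 and 158 FPKM in WT (-2.98 ± 0.27, adjusted p = 0.00781). mt-Nd1 had 48.0 and 27.9 FPKM in sgNAT10, against 208 and 150.1 FPKM in WT (-2.24 ± 0.30, adjusted p = 0.0224). mt-Nd5 had 19.96 and 23.2 FPKM in sgNAT10, against 118 and 94.3 FPKM in WT (-2.24 ± 0.20, adjusted p = 0.00686). These 3 complex I messengers thus had at most 48.0 FPKM in an sgNAT10 library and at least 94.3 FPKM in a WT library. mt-Nd6, on the opposite strand, had 64.8 and 43.6 FPKM in sgNAT10, against 229 and 245 FPKM in WT (-2.14 ± 0.21, adjusted p = 0.00946). mt-Cytb had 73.5 and 34.4 FPKM in sgNAT10, against 205 and 231 FPKM in WT (-2.09 ± 0.34, adjusted p = 0.0377). mt-Nd4 had 17.1 and 12.2 FPKM in sgNAT10, against 43.7 and 30.0 FPKM in WT (-1.27 ± 0.29, adjusted p = 0.0833). Its libraries did not overlap, and it was the gene of the 7 that missed the threshold. The authors' deposited adjusted p-value for mt-Nd4 in footprints was 0.0167.

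The ribosomal RNA reads in the footprint libraries showed smaller differences. mt-Rnr1 had 2809 and 3379 FPKM in sgNAT10, against 6977 and 4579 FPKM in WT (-0.88 ± 0.21, adjusted p = 0.0914). It passed under quantile normalization (-1.15, adjusted p = 0.00420) and with edgeR on recovered reads (-0.89, adjusted p = 0.00911). mt-Rnr2 had 17718 and 21624 FPKM in sgNAT10, against 31547 and 18449 FPKM in WT (-0.30 ± 0.25, adjusted p = 0.549), and its libraries overlapped. WT replicate 1 was the highest library for both of them. Among the 2 transfer RNA genes listed with footprints, 1 fell. mt-Tv, between the ribosomal RNA genes, had 52.8 and 134 FPKM in sgNAT10, against 1241 and 661 FPKM in WT, and fell (-3.41 ± 0.48, adjusted p = 0.0248). mt-Tm, next to mt-Nd2, had 166 and 168 FPKM in sgNAT10, against 689 and 307 FPKM in WT (-1.45 ± 0.36, adjusted p = 0.0987). The authors' deposited adjusted p-values in footprints were 0.0412 for mt-Rnr1, 0.0359 for mt-Tm and 0.546 for mt-Rnr2.

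The footprint calls rest on the full set of 4 libraries. Leaving out any of them left 1 library in a group, and the median of the 7 genes then stayed between -2.62 and -1.86. Without the variance trend 1 of 7 was called, and with edgeR on recovered reads 6 were. Of all genes tested, 0.433% and 3.53% were called lower at these settings. The predicted gene Gm42418 held 2.11% and 2.66% of summed footprint FPKM in sgNAT10, against 5.19% and 5.56% in WT, and its part in the result was not tested. The protein-coding genes held 0.0811% and 0.0501% of summed footprint FPKM in sgNAT10, against 0.317% and 0.319% in WT.

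**Figure D2:**
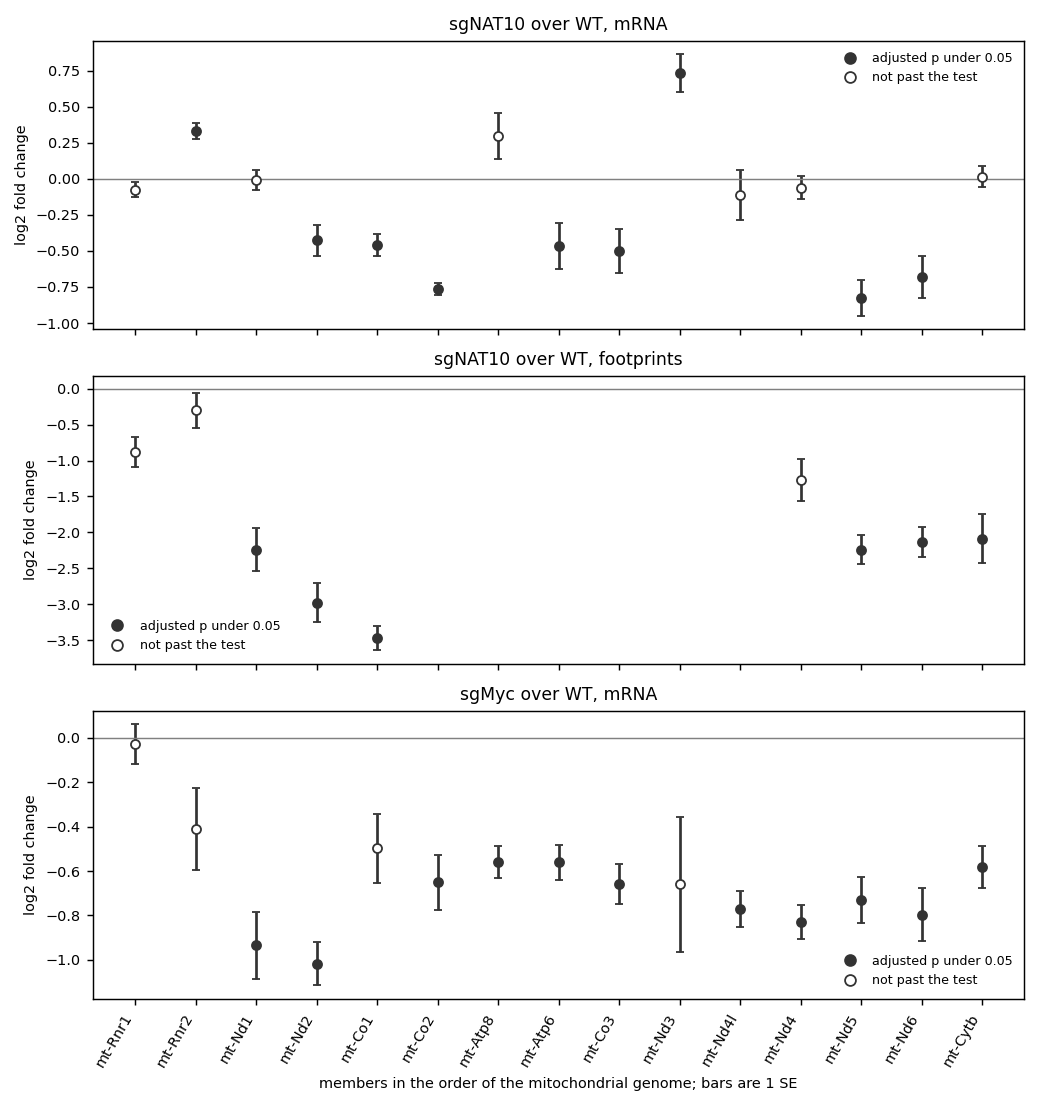
Log2 fold changes of edited over WT cells with bars of 1 SE, for ribosomal RNA and protein-coding genes in genome order; filled points passed the test. In sgNAT10 mRNA the points lie on both sides of 0, in footprints the 7 protein-coding genes lie between -3.47 and -1.27, and in sgMyc mRNA the 13 lie between -1.02 and -0.50.

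Footprints per messenger were low for these genes in either genotype and were lower in sgNAT10 cells for each of the 7, although none passed the test of the ratio. The ratio of mean footprint FPKM to mean mRNA FPKM had a median of 1.14 in sgNAT10 and 1.15 in WT over 9200 genes. It was 0.00396 in sgNAT10 and 0.0340 in WT for mt-Co1. For mt-Nd1 it was 0.00631 in sgNAT10 and 0.0296 in WT. For mt-Nd2 it was 0.0139 in sgNAT10 and 0.0826 in WT. The highest ratios of the 7 were those of mt-Nd6, at 0.0592 in sgNAT10 and 0.163 in WT, mt-Nd5, at 0.0360 in sgNAT10 and 0.101 in WT, and mt-Cytb, at 0.0269 in sgNAT10 and 0.110 in WT. For mt-Nd4 the ratio was 0.0211 in sgNAT10 and 0.0509 in WT.

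In the limma interaction of genotype and assay, with a weight for each assay, 0 of 7 genes passed, and over all 9200 genes 0.0326% were called. The log2 difference of the ratio was -3.01 ± 0.38 for mt-Co1 (adjusted p = 0.0552), -2.56 ± 0.58 for mt-Nd2 (adjusted p = 0.258), -2.23 ± 0.40 for mt-Nd1 (adjusted p = 0.128) and -2.10 ± 0.44 for mt-Cytb (adjusted p = 0.223). mt-Nd6, mt-Nd5 and mt-Nd4 were at -1.45, -1.42 and -1.21. The median of the 7 was -2.10, against -0.02 over all genes. At an unadjusted p under 0.05 there were 5 of the 7 and 745 of 9200 genes. edgeR on recovered reads called mt-Co1 (adjusted p = 0.000398) and mt-Nd2 (adjusted p = 0.0227). With the replicate number as a block, limma called mt-Co1, mt-Nd1 and mt-Nd2 (adjusted p = 0.00698, 0.0139 and 0.0165). mt-Rnr1 was at -0.80 and mt-Rnr2 at -0.64, neither past the test.

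In sgMyc mRNA nearly all mitochondrial messengers were lower, with fold changes between -1.02 and -0.50. Of 13 protein-coding genes tested, 11 fell and 2 did not pass, with a median log2 fold change of -0.66 against -0.03 over all 16794 genes tested, where 8.86% were called lower and 7.11% higher (edgeR quasi-likelihood test on counts). All sgMyc libraries lay below all WT libraries for 12 of the 13, against 21.7% of all genes tested. Values below are FPKM per library, and fold changes come from the counts.

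Among complex I genes, mt-Nd2 had 706, 642 and 755 FPKM in sgMyc, against 1461, 1371 and 1432 FPKM in WT (-1.02 ± 0.10, adjusted p = 0.00235). mt-Nd1 had 1326, 1285 and 1764 FPKM in sgMyc, against 2929.8, 2714 and 2739 FPKM in WT (-0.94 ± 0.15, adjusted p = 0.0113). These were the largest falls of the class, and sgMyc replicate 3 was the highest sgMyc library for both. mt-Nd4 had 703, 674 and 698 FPKM in sgMyc, against 1271, 1199 and 1219 FPKM in WT (-0.83 ± 0.08, adjusted p = 0.00207). mt-Nd4l had 540.2, 519 and 567 FPKM in sgMyc, against 970.3, 899 and 906 FPKM in WT (-0.77 ± 0.08, adjusted p = 0.00286). Their replicates were close together in both genotypes. mt-Nd5 had 807, 769 and 722 FPKM in sgMyc, against 1308, 1128 and 1369 FPKM in WT (-0.73 ± 0.10, adjusted p = 0.00706). mt-Nd6 had 549.6, 501 and 431 FPKM in sgMyc, against 901, 754 and 914 FPKM in WT (-0.80 ± 0.12, adjusted p = 0.00894). For these sgMyc replicate 3 was the lowest library. mt-Nd3 had 119, 109.5 and 219 FPKM in sgMyc, against 249, 274 and 189 FPKM in WT (-0.66 ± 0.30, adjusted p = 0.200). It was the only protein-coding gene whose groups overlapped, through sgMyc replicate 3 and WT replicate 3, and without sgMyc replicate 3 it passed (-1.02, adjusted p = 0.000161).

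In the other complexes the fold changes lay between -0.66 and -0.50. mt-Co1 had 6669, 6274 and 4540.5 FPKM in sgMyc, against 8409, 7433 and 8771 FPKM in WT (-0.50 ± 0.16, adjusted p = 0.0815). The groups did not overlap, and without sgMyc replicate 3, the lowest library, the change was smaller but passed (-0.31, adjusted p = 0.00293). mt-Co2 had 2181, 2094 and 1660.3 FPKM in sgMyc, against 3211, 2807 and 3282 FPKM in WT (-0.65 ± 0.12, adjusted p = 0.0187). mt-Co3 had 1318, 1261 and 1074 FPKM in sgMyc, against 1902, 1905 and 1947 FPKM in WT (-0.66 ± 0.09, adjusted p = 0.00666). In complex IV, then, every sgMyc library was below every WT library, and sgMyc replicate 3 was the lowest of all for each gene. mt-Cytb had 1418, 1373 and 1552 FPKM in sgMyc, against 2222, 2054 and 2221 FPKM in WT (-0.58 ± 0.09, adjusted p = 0.0118). mt-Atp6 had 1825, 1728 and 1707 FPKM in sgMyc, against 2703, 2438 and 2613 FPKM in WT (-0.56 ± 0.08, adjusted p = 0.00770). mt-Atp8 had 1845, 1754 and 1759.6 FPKM in sgMyc, against 2718, 2514 and 2664 FPKM in WT (-0.56 ± 0.07, adjusted p = 0.00566). These overlapping ATP synthase genes had nearly the same fold change.

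Neither ribosomal RNA passed the test in this set. mt-Rnr1 had 317, 263 and 292 FPKM in sgMyc, against 284, 307 and 297 FPKM in WT (-0.03 ± 0.09, adjusted p = 0.874). mt-Rnr2 had 371, 257 and 221 FPKM in sgMyc, against 352, 380.4 and 393 FPKM in WT (-0.41 ± 0.18, adjusted p = 0.192), and without sgMyc replicate 1 it passed (-0.61, adjusted p = 0.0369). In WT cells mt-Rnr1 averaged 296 FPKM in this set and 3508 FPKM in the sgNAT10 mRNA set, tables that were normalized separately. The protein-coding genes together held 2.33%, 2.22% and 1.96% of all counts in sgMyc, against 3.41%, 3.08% and 3.45% in WT. The sgMyc libraries were all lower, and the exact two-sided permutation p was 0.1, the smallest that 3 against 3 libraries allow.

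The number of protein-coding genes called depended on single libraries. It was 6 of 13 when WT replicate 1 or WT replicate 3 was left out and 8 when WT replicate 2 was. It was 10 without sgMyc replicate 1 or 2 and 13 without sgMyc replicate 3. In these fits 3.19%, 2.82%, 3.21%, 4.65%, 4.34% and 26.9% of all genes tested were called lower, in the order given. The median of the class was -0.66 without sgMyc replicate 3. mt-Co2 passed in that fit and missed the threshold in each of the other leave-one-out fits.

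Most transfer RNA genes tested in the sgMyc set fell as well. Of 22 listed, 19 were tested, 14 fell and 5 did not pass, with a median of -1.22 and a range of -3.25 to -0.29, where 8.86% of all genes tested were called lower. mt-Tf, mt-Tv and mt-Td did not pass the filter on low counts. mt-Tl1 was the most abundant, with 261, 254 and 254 FPKM in sgMyc, against 467, 474 and 458 FPKM in WT (-0.86 ± 0.07, adjusted p = 0.00163). mt-Te had 83.0, 76.9 and 63.4 FPKM in sgMyc, against 149.5, 145 and 159 FPKM in WT (-1.02 ± 0.14, adjusted p = 0.00639). mt-Ts1 had 265, 239 and 177 FPKM in sgMyc, against 323, 284 and 350.3 FPKM in WT (-0.50 ± 0.16, adjusted p = 0.0916). The sgMyc libraries lay below the WT libraries for all 3 of these genes.

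The largest falls among transfer RNA genes, named here after their values were seen, were in mt-Th, mt-Ts2, mt-Tl2, mt-Tr and mt-Tg, at -3.25, -3.07, -3.09, -2.64 and -2.14. mt-Th, mt-Ts2 and mt-Tl2 are adjacent between mt-Nd4 and mt-Nd5 (chrM:11546-11741), and mt-Tg and mt-Tr flank mt-Nd3 (chrM:9391-9875). mt-Th had 12.8, 5.74 and 16.5 FPKM in sgMyc, against 136, 171 and 34.1 FPKM in WT (SE 0.68, adjusted p = 0.0257). mt-Tr had 9.03, 4.62 and 11.0 FPKM in sgMyc, against 59.6, 76.6 and 22.1 FPKM in WT (SE 0.54, adjusted p = 0.0240). In all 5 genes WT replicate 3 was well below the other two WT libraries, as it was for mt-Nd3, and sgMyc replicate 2 was the lowest library. Their groups still did not overlap. Each of the 5 lost its call when WT replicate 1, WT replicate 2, sgMyc replicate 1 or sgMyc replicate 2 was left out, with adjusted p-values of 0.0799 to 0.156. The messengers around them, mt-Nd4l, mt-Nd4 and mt-Nd5, showed no such gap in WT replicate 3. A second neighbourhood was more even across replicates. mt-Tw, on the plus strand, and mt-Ta, mt-Tn, mt-Tc and mt-Ty, on the minus strand, lie together between mt-Nd2 and mt-Co1, and all passed, at -1.61, -1.43, -1.39, -1.36 and -1.17. mt-Ty lost its call with the replicate number as a block (adjusted p = 0.0694) and in 5 of the leave-one-out fits (adjusted p = 0.0666 to 0.0872).

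**Figure D3:**
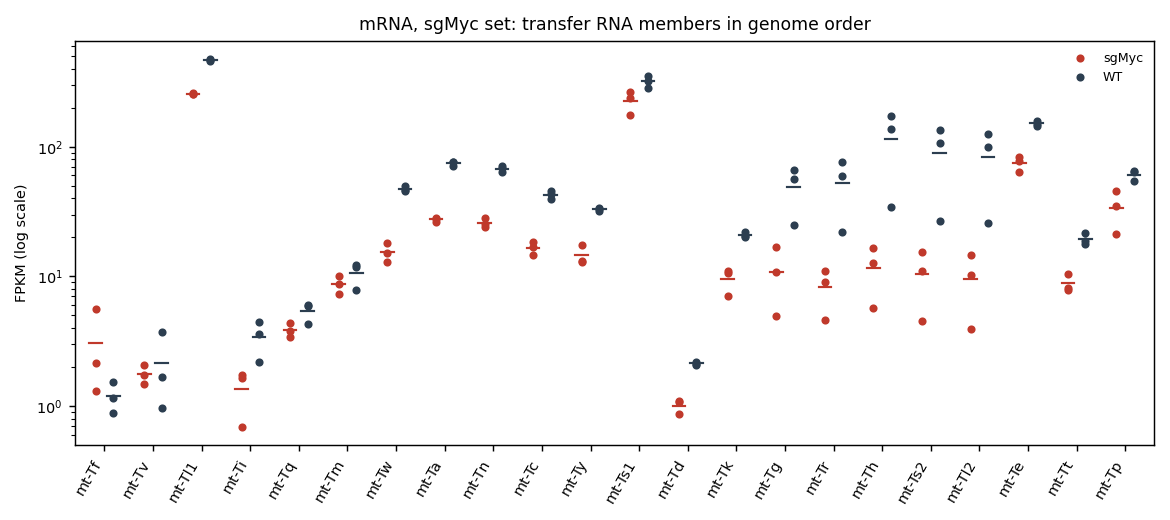
FPKM on a log scale of the 22 transfer RNA genes in genome order in the sgMyc mRNA set; points are libraries, bars are group means, and sgMyc stands left of WT. From mt-Tg to mt-Tl2 the WT libraries spread widely, as in mt-Th with 136, 171 and 34.1 FPKM, while from mt-Tw to mt-Ty they lie close together.

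The edits were compared with each other by testing the sgNAT10 effect minus the sgMyc effect, each against its own WT libraries, in 1 limma model. Of 13 protein-coding genes, 7 had a higher difference and 6 did not pass, against 21.0% called over 10265 genes, 14.2% higher and 6.78% lower. Myc mRNA itself was lower in both edits, as given above. On sums without the mitochondrial genes and Gm23935, 1140 genes were called higher and 869 lower, against 1457 and 696 in the test as made. The difference was 1.45 ± 0.41 for mt-Nd3 (adjusted p = 0.0396), 0.94 ± 0.20 for mt-Nd1 (adjusted p = 0.0114) and 0.86 ± 0.17 for mt-Atp8 (adjusted p = 0.0103). It was 0.77 ± 0.12 for mt-Nd4 (adjusted p = 0.00276), 0.66 ± 0.20 for mt-Nd4l (adjusted p = 0.0472), 0.60 ± 0.13 for mt-Cytb (adjusted p = 0.0134) and 0.60 ± 0.16 for mt-Nd2 (adjusted p = 0.0292). Of these genes mt-Nd2 fell in both edits, at -0.43 in sgNAT10 and -1.02 in sgMyc. mt-Nd1, mt-Nd4, mt-Nd4l, mt-Cytb and mt-Atp8 passed as lower in sgMyc mRNA only, and mt-Nd3 passed as higher in sgNAT10 mRNA only. For mt-Co1, mt-Co2, mt-Co3, mt-Atp6, mt-Nd5 and mt-Nd6 the difference was between -0.11 and 0.16 and did not pass. Of 8 transfer RNA genes, mt-Ty, mt-Ta and mt-Tw passed, at 1.63 ± 0.22, 1.47 ± 0.19 and 1.39 ± 0.38. In the sgNAT10 set these 3 rest on 18 to 51 reads per library. mt-Tw lost its call in 8 leave-one-out fits, with 0.88 without sgNAT10 replicate 1, with the replicate block (adjusted p = 0.0827) and with 1 weight per set of libraries (adjusted p = 0.0885).

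In this test 4 protein-coding genes were called in each fit without sgMyc replicate 1 or 2, or without sgMyc-set WT replicate 1 or 2. Under quantile normalization 2 were called and with no filter on low values 3. On sums without the mitochondrial genes and Gm23935 5 were called, and under median scaling 5 were. Of all genes tested, 12%, 12%, 9.98%, 10.3%, 12.5%, 11.3%, 11.1% and 12% were called higher at these settings, in the order given. The median of the 13 was 0.60 in the test as made, 0.47 without sgNAT10-set WT replicate 2 and 0.39 without sgNAT10 replicate 1. mt-Nd3 and mt-Nd4l each lost their call in 8 of the leave-one-out fits and mt-Nd2 in 7. With the replicate block mt-Nd3 and mt-Nd4l were at adjusted p = 0.107 and 0.0744. The levels of some of these genes differ widely between the sets. mt-Atp8 averaged 2.77 FPKM in WT of the sgNAT10 set and 2632 FPKM in WT of the sgMyc set, values that were normalized separately. How multi-mapping and overlapping reads were counted in each table is not given in the sources used here, so for mt-Atp8, mt-Nd3 and mt-Nd4l a difference between the edits cannot be told apart from a difference in counting between the tables.

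**Figure D4:**
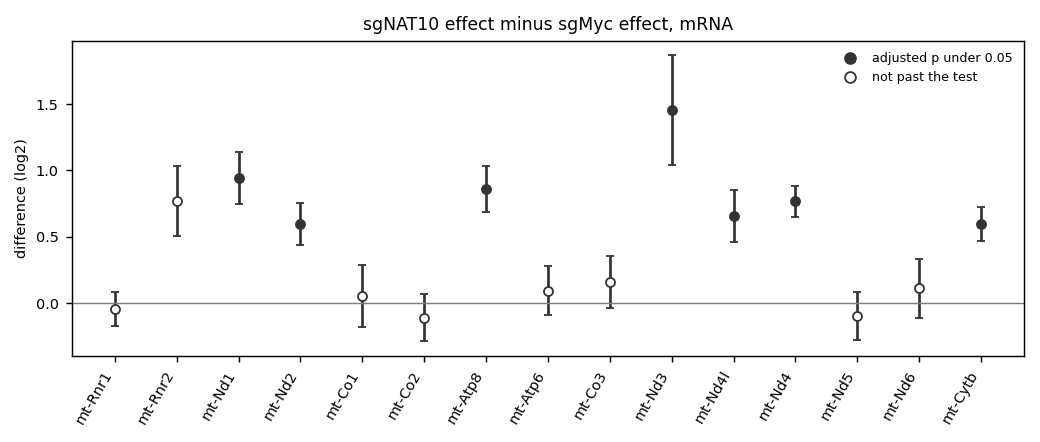
The sgNAT10 effect minus the sgMyc effect on mRNA (log2) with bars of 1 SE, for ribosomal RNA and protein-coding genes in genome order; filled points passed the test. The 7 filled points lie between 0.60 and 1.45, and the open protein-coding points between -0.11 and 0.16.

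A stretch of mitochondrial DNA has a nuclear copy on mouse chromosome 1, and reads from near-identical copies cannot be assigned with certainty. The sgMyc table lists 7 unprocessed pseudogenes in this block. By order and length, to within 3 bases, 5 of them pair with mt-Co2, mt-Atp6, mt-Co3, mt-Nd3 and mt-Nd4l. All 7 are listed in the sgNAT10 mRNA table and 1 in the footprint table. In the sgMyc set the pseudogenes had levels close to those of their mitochondrial genes, for example 237 FPKM for mt-Nd3 and 198 FPKM for Gm28438 in WT. mt-Co2 averaged 1978 FPKM in sgMyc and 3100.0 FPKM in WT, and Gm28661 averaged 1953 FPKM in sgMyc and 3054 FPKM in WT. In the sgNAT10 set both were lower, with mt-Co2 at 190.2 FPKM in sgNAT10 and 324 FPKM in WT and Gm28661 at 117 FPKM in sgNAT10 and 195 FPKM in WT. mt-Nd3 and its pseudogene Gm28438 were each higher in sgNAT10, the pseudogene at 11.4 FPKM in sgNAT10 and 5.90 FPKM in WT. The levels and changes of these 5 genes, and of mt-Atp8, which lies between mt-Co2 and mt-Atp6, are therefore uncertain. The transfer RNA genes mt-Tk (chrM:7700-7764), mt-Tg (chrM:9391-9458) and mt-Tr (chrM:9808-9875) also lie between these genes. Whether their reads, or those of genes beside the unpaired pseudogenes, are affected was not examined. With each gene and its pseudogene summed, an alternative chosen after the values were seen, the number of protein-coding genes called was 8 in sgNAT10 mRNA and 7 in the test of the difference, the same numbers as without the sum.

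**Figure D5:**
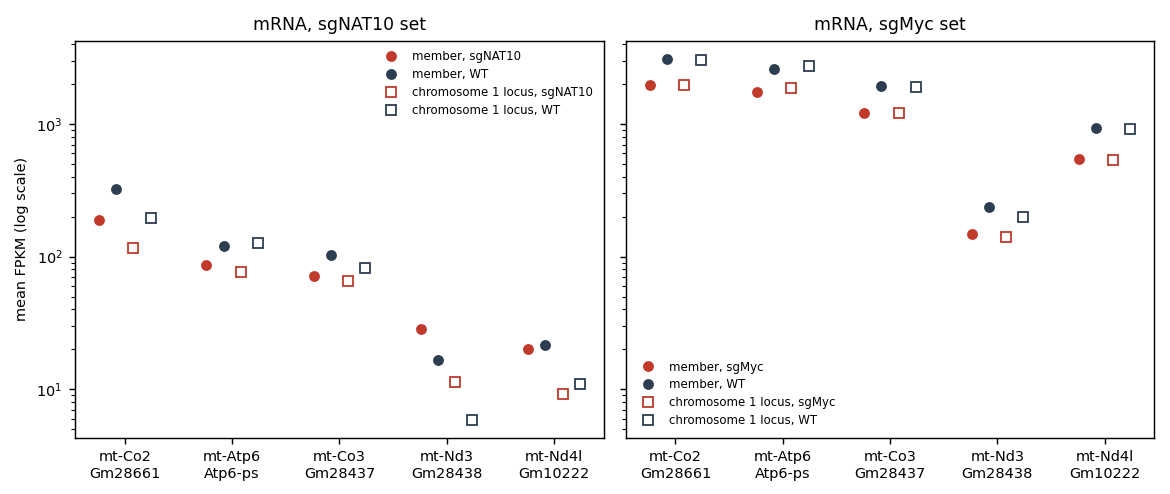
Mean FPKM on a log scale of the 5 mitochondrial genes (filled circles) and their chromosome 1 pseudogenes (open squares) in the sgNAT10 and sgMyc mRNA sets, edited left of WT. In the sgMyc set gene and pseudogene have nearly equal means above 100 FPKM, and in the sgNAT10 set both are lower.

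The nuclear genes that make and read mitochondrial RNA were described by 4 lists, chosen with earlier results of these data known. In sgNAT10 mRNA all 4 had more genes falling than rising, where 29.6% of all genes tested were called lower and 33.7% higher. Of 15 tested genes for mitochondrial transcription and mitochondrial DNA maintenance, 10 fell and 0 rose, with a median of -0.41. Tfam, which packages mitochondrial DNA and starts its transcription, had 7.77 ± 0.298 FPKM in sgNAT10 and 11.4 ± 0.454 FPKM in WT (SD, n = 2 each; -0.50, adjusted p = 0.000693). Polrmt was at -0.30 (adjusted p = 0.00406), Lonp1, a matrix protease, at -0.64 and Rnaseh1, which removes RNA paired with DNA, at -0.79, all past the test. The largest change among the named genes of this list was in Twnk, the mitochondrial DNA helicase, with 6.70 ± 0.223 FPKM in sgNAT10 and 16.2 ± 0.616 FPKM in WT (-1.16, adjusted p = 4.74e-05).

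Of 31 tested genes for mitochondrial RNA processing and stability, 17 fell and 2 rose, with a median of -0.29. Lrpprc, which stabilises mitochondrial messengers, had 7.71 ± 0.349 FPKM in sgNAT10 and 16.5 ± 0.0220 FPKM in WT (-1.01, adjusted p = 5.70e-05). Tbrg4, a FASTK-family RNA-binding protein, and Pus1, a pseudouridine synthase, were at -0.82 and -0.64, both past the test. The 2 that rose were Hsd17b10, a subunit of mitochondrial RNase P, at 0.85 (adjusted p = 3.70e-05), and Rexo2, an oligoribonuclease, at 0.81 (adjusted p = 7.68e-05).

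Of 33 tested translation factors and transfer RNA synthetases, 18 fell and 0 rose, with a median of -0.28. Tufm, the mitochondrial elongation factor Tu, had 31.4 ± 0.344 FPKM in sgNAT10 and 45.0 ± 0.121 FPKM in WT (-0.50, adjusted p = 0.000127). Taco1, a translational activator of mt-Co1, was at -0.78 (adjusted p = 0.00154) and C1qbp, a matrix protein, at -0.68 (adjusted p = 4.64e-05). Of 15 genes for mitochondrial mass and biogenesis, 11 fell and 0 rose, with a median of -0.25. Esrra, a nuclear receptor, was at -0.82, and Cs, citrate synthase, and Phb, prohibitin, were each at -0.68, all past the test.

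In the other comparisons few genes of these lists passed. In footprints 1 of 31 RNA processing genes fell, Lrpprc, and limma called 0 in the other lists. Over all 9707 genes tested in footprints 1.28% were called lower and 1.81% higher. Lrpprc footprints had 25.3 ± 0.838 FPKM in sgNAT10 and 62.8 ± 9.05 FPKM in WT (SD, n = 2 each; -1.27, adjusted p = 0.0298). They did not pass without the variance trend (adjusted p = 0.120), and were between -1.42 and -1.13 when single libraries were left out. Footprints of Tfam were at -0.9998 (adjusted p = 0.169), of Tufm at -0.42 (adjusted p = 0.479) and of Polrmt at 0.19 (adjusted p = 0.801). In sgMyc mRNA 2 of 18, 1 of 32, 3 of 35 and 1 of 15 fell, in the order of the lists above. In the RNA processing list 1 of 32 rose, and 0 rose in the others. Over all genes tested 8.86% were called lower and 7.11% higher. Lonp1 was at -0.83 (adjusted p = 0.00872) and Rars2, the arginyl synthetase, at -0.67 (adjusted p = 0.0120). Vdac3, an outer membrane channel, was at -0.53 (adjusted p = 0.0221), and Hsd17b10 rose by 0.62 (adjusted p = 0.00698). Vdac3 lost its call in 5 of the leave-one-out fits, Rars2 in 4, and Lonp1 and Hsd17b10 in 2 each. With the replicate number as a block, Vdac3 and Rars2 did not pass (adjusted p = 0.0652 and 0.0506). Tfam, Lrpprc, Tufm and Polrmt did not pass, at -0.27, -0.72, -0.06 and 0.03. Lrpprc, at adjusted p = 0.0530, was called lower with DESeq2 (adjusted p = 0.00882), with limma on log2(FPKM + 1) (adjusted p = 0.0423), with TMM without the mitochondrial genes (adjusted p = 0.0490) and without sgMyc replicate 3 (adjusted p = 3.53e-07). Ppargc1a, a transcriptional coactivator, averaged under 1 FPKM in both genotypes. Without sgMyc replicate 3, 6 of 18, 16 of 32, 19 of 35 and 10 of 15 genes fell and 2, 3, 3 and 0 rose, so that library decides these counts. In that fit 26.9% of all genes tested were called lower and 26.6% higher.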

How the data were processed

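The submitters' processing notes name FastQC, Trim Galore, Bowtie2, featureCounts and mm10, without versions. For sgNAT10, the deposited mRNA and footprint tables hold FPKM, per the file headers, with log2 fold changes and p-values from a test not given in the sources used here, and the sgMyc table holds counts and FPKM. The deposited acRIP table gives fold enrichment and log10 scores per peak.

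FPKM tables were tested with limma 3.58.1 (R 4.3.3; log2(FPKM + 1), variance trend) where the average reached 1 FPKM, the ratio and the difference between edits as interactions, and sgMyc counts with edgeR 4.0.16 (filterByExpr, TMM, quasi-likelihood). The ratio model took 1 weight per assay, 0.152 for footprints and 6.57 for mRNA. Benjamini-Hochberg adjustment ran over all genes tested, with a threshold of 0.05. Fold changes on log2(FPKM + 1) understate changes of low genes. Whole reads were recovered as the smallest numbers matching the FPKM ratios, in 99.9% of genes of the mRNA table and 99.99% of the Ribo-seq table. Such numbers are too low where the true reads of a gene share a divisor. Only the mitochondrial genes were set by their length. Recovered reads gave depth and an alternative edgeR test, which called 9254 of 13858 genes in mRNA and 706 of 9833 in footprints. Replicates were compared by a chi-square test in genes with at least 10 reads in the pair, with a limit of p = 0.001. The code was tested on simulated data.

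The members and lists were chosen with earlier results of these data known. All protein-coding and ribosomal RNA genes were named, the 3 most abundant transfer RNA genes of each table, and of each nuclear list up to 3 called genes each way with at least 5 FPKM, plus Tfam, Polrmt, Lrpprc, Ppargc1a and Tufm; 1 gene that this rule names is not reported here. The other transfer RNA genes given by name were chosen after their values were seen. Alternatives covered pseudocounts (0.1), filters, scalings, DESeq2 1.42.0, a replicate block and leaving out each library.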

Additional observations from a re-analysis of the deposited data

Results flagged for a closer look

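The effects of the edits on mRNA differed, by the limma test of the sgNAT10 effect minus the sgMyc effect, for 7 protein-coding and 3 transfer RNA genes of the mitochondrial genome. The differences on the log2 scale were 0.94 for mt-Nd1, 0.60 for mt-Nd2, 0.86 for mt-Atp8, 1.45 for mt-Nd3, 0.66 for mt-Nd4l, 0.77 for mt-Nd4 and 0.60 for mt-Cytb. For the transfer RNA genes they were 1.39 for mt-Tw, 1.47 for mt-Ta and 1.63 for mt-Ty. Values for mt-Atp8, mt-Nd3 and mt-Nd4l rest on 9 to 193 reads per library in the sgNAT10 set. Those for mt-Ta rest on 18 to 31 reads there, for mt-Ty on 19 to 30 and for mt-Tw on 23 to 51. When single libraries were left out, mt-Nd3, mt-Nd4l and mt-Tw each lost their call in 8 fits and mt-Nd2 in 7. With the replicate number as a block, mt-Nd3, mt-Nd4l and mt-Tw did not pass (adjusted p = 0.107, 0.0744 and 0.0827).

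The acRIP data, which entered no comparison above, held 4 of their 1358 peaks in mitochondrially encoded genes, all in ribosomal RNA, and the values are the authors'. In mt-Rnr1 the enrichment of precipitate over input was 1.36-fold at chrM:100-249 and 2.98-fold at chrM:756-1024. In mt-Rnr2 it was 1.64-fold at chrM:1094-1273 and 2.61-fold at chrM:1780-2496. The median over all peaks was 1.77-fold. The authors' log10 FDR of enrichment was -0.668 for the first of these peaks and -42.9, -15.4 and -159 for the others. The table's log2 fold between genotypes was 0.975, 0.215, 0.223 and 0.171 for these peaks, and the direction of that fold is not stated in its header. The authors' log10 FDR of that fold was -1.92, -0.759, -0.915 and -2.84. With 1 precipitate and 1 input per genotype there is no replicate check.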

How the results depend on the processing

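Same-numbered libraries did not deviate together over all genes tested (correlations of 0.00790 in sgNAT10 mRNA, 0.0245 in footprints and -0.0222 to 0.00394 in the sgMyc set), so the numbers were not taken to pair them, although replicate 1 was above replicate 2 for 12 of 13 protein-coding genes in sgNAT10 and 13 of 13 in WT of the sgNAT10 mRNA set. With a replicate block the protein-coding genes called numbered 9 in sgNAT10 mRNA, 6 in footprints, 3 in the ratio, 10 in sgMyc mRNA and 5 in the difference. Of all genes tested with the block, 29% were called lower and 32.6% higher in sgNAT10 mRNA. Called lower were 1.01% in footprints, 0.0761% in the ratio and 4.01% in sgMyc mRNA, and 8.87% were called higher in the difference. In footprints leaving out each library gave medians of -2.62 to -1.86. No variance trend gave 1 called there, where 0.433% of all genes tested were called lower. For the ratio 1 was called with a minimum of 5 FPKM, 1 with 1 residual spread for both assays and 2 with edgeR on recovered reads. Of all genes tested, 0.168%, 0.109% and 0.113% were called lower at these settings. Leaving out libraries gave medians of the ratio of -2.61 to -1.57. In sgMyc mRNA leaving out libraries gave 6 to 13 called, where 2.82% to 26.9% of all genes tested were called lower. For the difference, leaving out libraries of the sgMyc set gave 4 to 7, where 9.98% to 36.4% of all genes tested were called higher. No filter gave 3 and quantile normalization 2, where 11.3% and 12.5% were called higher. Leaving out any library gave medians of the difference of 0.39 to 0.68.

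No gene called in the tests as made changed direction at another setting. Among values near 0, sgNAT10 mRNA of mt-Cytb was -0.0353 on sums without the mitochondrial genes and Gm23935, -0.0523 under median scaling and -0.0527 under quantile normalization, and mt-Ta was -0.00319 under median scaling and -0.0272 under quantile normalization. Under quantile normalization mt-Rnr2 was 0.38 in footprints and 0.27 in the ratio, and the difference was -0.39 for mt-Atp6, -0.17 for mt-Co3 and -0.16 for mt-Nd6. In sgMyc mRNA mt-Rnr1 was 0.00948 with RLE factors, 0.00453 with TMM without the mitochondrial genes, 0.00736 with no filter and 0.0226 with DESeq2. On sums without the mitochondrial genes and Gm23935 the difference was -0.0223 for mt-Co1 and -0.0709 for mt-Ts1, under median scaling -0.0434 for mt-Ts1, and with the chromosome 1 copy summed -0.0440 for mt-Atp6. Leaving out libraries, sgNAT10 mRNA ranged from -0.15 to 0.27 for mt-Ta, -0.0765 to 0.11 for mt-Cytb, -0.10 to 0.0785 for mt-Nd1, -0.69 to 0.33 for mt-Tw, -0.38 to 0.16 for mt-Nd4l and -0.16 to 0.0384 for mt-Nd4. Footprints ranged from -0.69 to 0.0854 for mt-Rnr2 and -0.18 to 0.57 for Polrmt. sgMyc mRNA ranged from -0.0601 to 0.0756 for mt-Rnr1, -0.38 to 0.12 for Tufm, -0.52 to 0.00359 for Nat10 and -0.10 to 0.15 for Polrmt. The difference ranged from -0.11 to 0.33 for mt-Nd6, -0.19 to 0.45 for mt-Tt, -0.12 to 0.0186 for mt-Rnr1, -0.17 to 0.12 for mt-Ts1, -0.29 to 0.0925 for mt-Nd5, -0.12 to 0.16 for mt-Co1, -0.14 to 0.33 for mt-Atp6 and -0.0768 to 0.40 for mt-Co3.

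Over all genes, footprint calls numbered 300, against 87 with no variance trend, 706 with edgeR on recovered reads and 0 when any library was left out. In sgMyc mRNA they numbered 2682, against 1082 with the block and 680 to 9368 when libraries were left out (9368 without sgMyc replicate 3), and DESeq2 called 2090 higher and 1702 lower, against 1194 and 1488. For the difference they numbered 2153, against 1256 with the block and 1138 to 6123 when libraries were left out (6123 without sgMyc replicate 3). Ratio calls numbered 3, with 0 to 24 at the other settings.

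The causes of these changes were not tested. Where a group was left with 1 library, that library was taken to vary like the others. Footprint depth limits the sgNAT10 values, which rest on 50 to 300 reads per messenger.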
